A study of Mus musculus with 18 samples.

Results

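The genes described here are 40 genes of mitosis, the step in which a cell separates its copied chromosomes and divides. They were chosen by their known function from the 48795 genes of the table, with earlier results of these data known. They fall into 8 groups by role. The groups are 8 mitotic kinases, cyclins and their phosphatase, 4 proteins of the chromosomal passenger complex, 6 of the spindle checkpoint and the anaphase-promoting complex, 6 of the kinetochore and centromere, 6 mitotic kinesins, 6 of spindle assembly and the spindle midzone, 2 of cytokinesis, and Top2a with Mki67. Each of the 40 symbols matched 1 gene identifier, and all 40 passed the filter on low values in every comparison. Their RNA was measured in GL261, a mouse glioma cell line marked with green fluorescent protein (GFP), and in tumours that grew from it.

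The libraries form 6 groups of 3. The first group is GFP+ GL261 cells sorted from culture, the cells that were injected, with no host genotype. Every other group comes from GL261 GFP tumours of symptomatic C57BL/6 mice, 6 mice of each host, digested with collagenase to single cells. Sorted GFP+ cells came from WT and from Pfp/Rag2-/- hosts, unsorted cells came from each of these hosts, and sorted GFP- cells came from WT hosts alone. Mice of the Pfp/Rag2-/- genotype have no perforin, with which cytotoxic cells pierce their targets, and no Rag2, which T and B cells need to rearrange their receptors, while natural killer cells still develop. Every tumour comes from 1 cell line, and the labels give no treatment and no age, and leave unsaid if 1 mouse or a pool went into each library. The p-values below therefore measure the spread between these libraries, which may be technical.

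Entry into mitosis is driven by the kinase Cdk1 bound to B-type cyclins, and Cdc25 phosphatases switch that complex on. Spindle microtubules then attach to kinetochores on each centromere, a checkpoint holds Cdc20 back until all are attached, and the anaphase-promoting complex with Cdc20 marks securin and cyclin B for destruction, so that the chromosomes separate and the cell divides. Most of these genes are transcribed in a burst in G2 and mitosis. Their promoters are known for CCAAT boxes, bound by NF-Y, and for the cell cycle genes homology region (CHR), bound by complexes of the MuvB core, which repress the genes in resting cells and, with B-Myb and FoxM1, activate them late in the cycle. The mitosis genes are therefore widely read as a sign of how many cells are dividing, in gliomas as in other tumours.

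Promoter windows of RefSeq (GRCm38.p6), 250 bases before to 50 bases after an annotated start, were found for 33 of the 40 genes. The 6 below are shown because they belong to the genes the results turn on: Cdk1 and Top2a as typical members, Anln and Prc1 with the largest host differences in sorted cells, Mki67 with the smallest called difference in GFP- cells, and Spc25, not called in either comparison of sorted tumour cells with culture. Each line runs 5′ to 3′ from 170 bases before the start to 30 after it, and capitals mark CCAAT boxes and CHR elements on either strand, which read ATTGG or TTCAAA where they lie on the other one.
Cdk1: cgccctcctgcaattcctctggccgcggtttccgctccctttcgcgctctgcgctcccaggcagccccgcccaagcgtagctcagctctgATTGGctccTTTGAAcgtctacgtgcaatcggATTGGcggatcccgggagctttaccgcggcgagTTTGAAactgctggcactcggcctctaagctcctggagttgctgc
Top2a: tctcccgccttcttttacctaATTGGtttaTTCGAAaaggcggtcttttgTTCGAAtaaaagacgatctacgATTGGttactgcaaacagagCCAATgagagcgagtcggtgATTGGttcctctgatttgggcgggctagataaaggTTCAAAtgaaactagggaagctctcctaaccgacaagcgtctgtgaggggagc
Prc1: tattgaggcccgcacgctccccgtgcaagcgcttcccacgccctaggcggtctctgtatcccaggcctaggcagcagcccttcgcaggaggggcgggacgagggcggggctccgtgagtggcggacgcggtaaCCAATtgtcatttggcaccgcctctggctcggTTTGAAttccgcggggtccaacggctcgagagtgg
Anln: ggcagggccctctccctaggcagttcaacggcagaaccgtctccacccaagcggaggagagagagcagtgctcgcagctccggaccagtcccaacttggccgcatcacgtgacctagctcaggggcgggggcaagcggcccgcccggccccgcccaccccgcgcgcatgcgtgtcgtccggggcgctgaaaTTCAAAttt
Mki67: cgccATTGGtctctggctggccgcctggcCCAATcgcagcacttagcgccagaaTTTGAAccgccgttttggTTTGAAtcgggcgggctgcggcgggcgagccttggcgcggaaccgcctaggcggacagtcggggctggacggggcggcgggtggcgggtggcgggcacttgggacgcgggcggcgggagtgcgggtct
Spc25: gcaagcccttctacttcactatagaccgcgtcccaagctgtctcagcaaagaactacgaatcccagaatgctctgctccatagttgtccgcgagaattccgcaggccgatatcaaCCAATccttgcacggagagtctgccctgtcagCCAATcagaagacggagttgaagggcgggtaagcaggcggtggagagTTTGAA

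In GRCm38 these stretches lie at chr10:69352883-69353082 (Cdk1), chr11:99024160-99024359 (Top2a), chr7:80294281-80294480 (Prc1), chr9:22389177-22389376 (Anln), chr7:135716350-135716549 (Mki67) and chr2:69206184-69206383 (Spc25), the third on the plus strand and the others on the minus strand. The Cdk1 stretch holds 2 CCAAT boxes and 2 CHR elements, Top2a 4 and 3, Prc1 1 and 1, Mki67 2 and 2, and Spc25 2 and 1. Anln has no CCAAT box in the stretch and 1 CHR element, after the start. Over whole windows, the CHR letters TTTGAA or TTCGAA, on either strand, were present for 26 of the 33 mitosis genes (78.8%), against 6 of 32 DNA replication genes (18.8%) and 21.7% of 27025 genes with a window. CCAAT, on either strand, was present for 24 of 33 (72.7%), against 20 of 32 replication genes (62.5%) and 41.1% of all genes. Both motifs stood in the windows of 22 of 33 mitosis genes (66.7%), 5 of 32 replication genes (15.6%) and 8.61% of all genes. A gene counted where any of its windows held the letters. A CCAAT box and a CHR element can share an end base, and a match is a stretch of letters, not a measured site.

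The libraries held 19172814 to 21141662 reads. All levels are normalized counts, in which the authors divided the reads of a library by 1 size factor, and differences are of log2(normalized count + 1), tested with limma, and a gene is called where its p, adjusted over all genes by Benjamini-Hochberg, is under 0.05. GFP- libraries had size factors of 0.649 to 0.761, and all others 1.04 to 1.15. Of the lymphocyte and myeloid markers, 7 of 18 for macrophages and microglia, 5 of 16 for T cells and 4 of 8 for natural killer cells were at 0 in all cultured libraries. The 18 macrophage and microglia markers summed to 161 to 172 in culture, 6092 to 15117 in WT GFP+ cells, 6644 to 14055 in Pfp/Rag2-/- GFP+ cells, 28998 to 41669 in WT unsorted cells, 9244 to 10731 in Pfp/Rag2-/- unsorted cells and 403812 to 479134 in GFP- cells. Prf1, the gene for perforin, was at 117, 5.51 and 0.921 in Pfp/Rag2-/- GFP+ libraries 1 to 3 and at 118, 4.75 and 10.1 in WT GFP+ libraries 1 to 3. In unsorted cells Prf1 was at 109, 99.0 and 139 in WT and at 7.11, 13.6 and 16.2 in Pfp/Rag2-/- libraries, lower in the Pfp/Rag2-/- hosts. Rag2 was at 0 in every WT library and at 4.44, 6.34 and 3.61 in Pfp/Rag2-/- unsorted libraries, a few reads each and not lower in the Pfp/Rag2-/- hosts. The counts per gene do not tell whether such reads come from a deleted part, so they do not check the host labels. GFP+ library 1 of each host also had the highest natural killer sum of its group (a summed normalized count of 1372 in WT and 2323 in Pfp/Rag2-/-). Only genes with 10 or more normalized counts in at least 3 libraries of a comparison were tested.

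In culture the mitosis genes were abundant and even between libraries. Per kilobase of exon, the highest levels belonged to Cdc20, the activator of the anaphase-promoting complex (3627 normalized counts per kilobase), Top2a (2358), Ube2c, the ubiquitin-conjugating enzyme of that complex (1827), the B-type cyclin Ccnb2 (1712) and Anln (1625). Cdc25c (170.0) and the kinetochore gene Ndc80 (136) were the lowest. Together the 40 genes took 0.767% to 0.775% of the reads of cultured cells. That share was 0.541% to 0.596% in WT GFP+ cells, 0.460% to 0.489% in Pfp/Rag2-/- GFP+ cells, 0.623% to 0.646% in WT unsorted cells, 0.479% to 0.563% in Pfp/Rag2-/- unsorted cells and 0.0756% to 0.167% in GFP- cells. The median coefficient of variation of a member between the 3 libraries of a group was 2.41% in culture, 5.95% and 4.84% in WT and Pfp/Rag2-/- GFP+ cells, 9.22% and 9.42% in the unsorted cells and 44.1% in GFP- cells. Among all genes with a mean of at least 100 it was 13.7% in the GFP- cells.

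**Figure D1:**
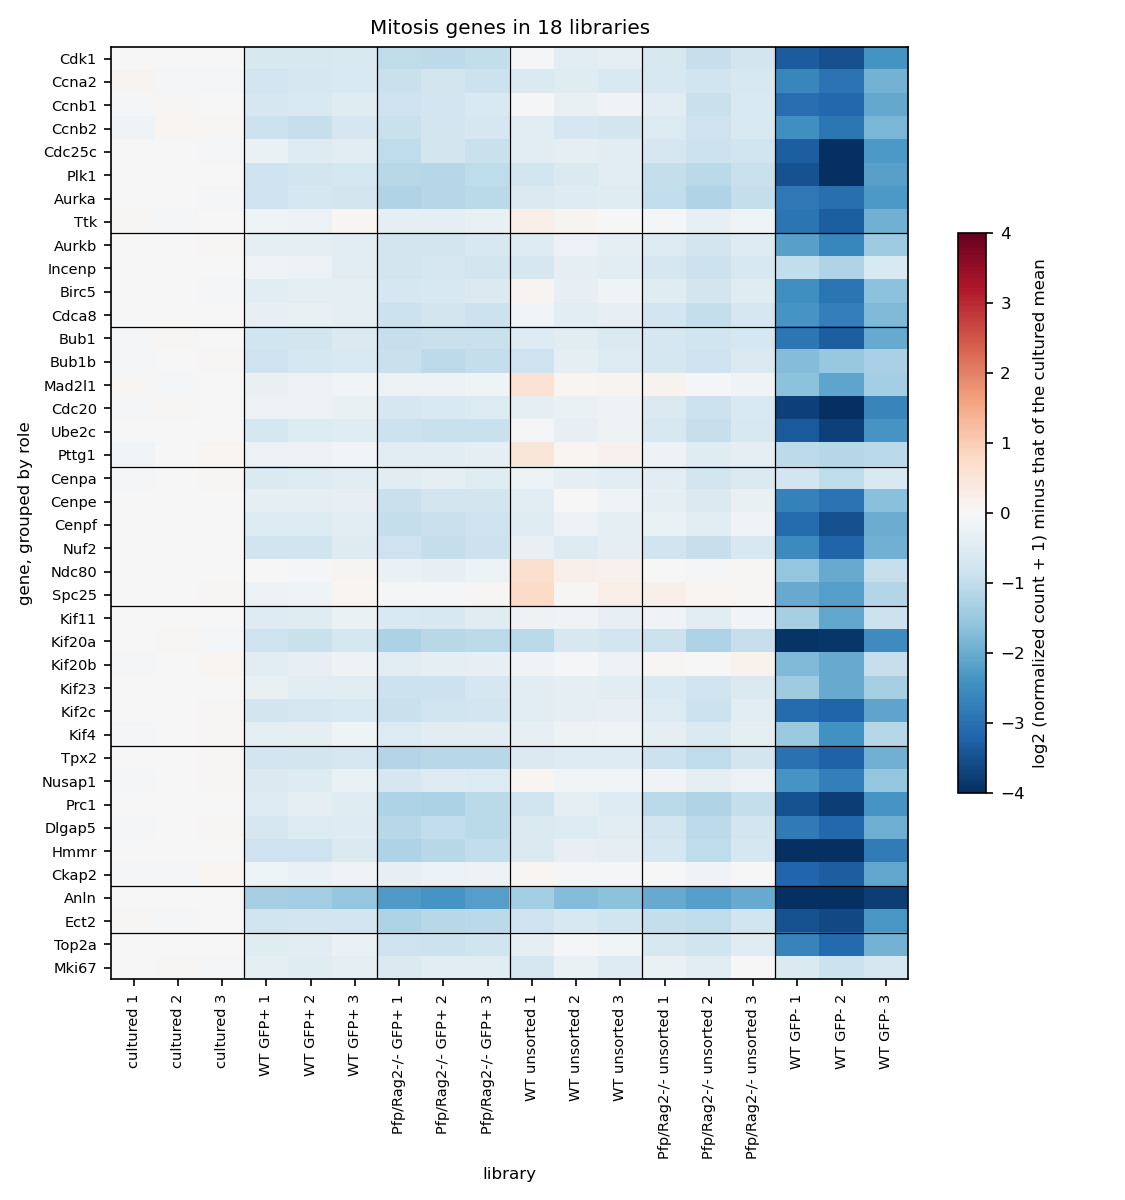
Each row is 1 of the 40 mitosis genes, grouped by role, and each column 1 library; the color is log2(normalized count + 1) minus that of the cultured mean (blue lower, red higher). Nearly all tumour libraries are blue, Anln is the darkest row in the GFP+ and unsorted columns, and the GFP- columns are darkest, with library 3 lighter than libraries 1 and 2.

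GFP+ cells taken from tumours had less mitosis-gene RNA than the same line in culture, in both hosts. In WT tumours 37 of the 40 genes were lower than in culture and 0 higher, where 35.3% of 14261 genes were called lower and 30.3% higher, and the median member was at 72.7% of culture (median log2 difference -0.46 against -0.04 over all genes). In Pfp/Rag2-/- tumours 39 of 40 were lower and 0 higher, where 37.1% of 14487 genes were called lower and 35.1% higher, and the median member was at 57.4% (median log2 difference -0.80 against -0.01). Both comparisons use the same cultured libraries. The exceptions were kinetochore genes and a kinase: Ttk, Spc25 and Ndc80 were not called in WT, and Spc25 was not called in Pfp/Rag2-/-. Such RNA is a mean over the cells of a library, so fewer dividing cells and less RNA per cell cannot be told apart here or below.

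Anln, which encodes anillin, the scaffold of the contractile ring that cuts the dividing cell (chr9:22332012-22389188, minus strand), changed most in both hosts. It was at 14875, 14616 and 14689 in cultured libraries 1 to 3, at 5851, 5617 and 5061 in WT GFP+ libraries and at 3062, 2890.5 and 3211 in Pfp/Rag2-/- GFP+ libraries. All 3 groups were separate, with the cultured cells highest and the Pfp/Rag2-/- cells lowest. It fell by 1.42 on the log2 scale in WT (SE 0.06, adjusted p = 3.16e-07) and by 2.27 in Pfp/Rag2-/- (SE 0.04, adjusted p = 1.67e-09), to 37.4% and 20.7% of culture. Anln is also known as a gene of myelinating oligodendrocytes. The 8 oligodendrocyte markers summed to 38733 to 40747 in culture, 8494 to 16059 in WT GFP+ cells and 16734 to 18459 in Pfp/Rag2-/- GFP+ cells, and in culture the myelin markers Mobp and Ermn were at 0 while Mbp was at 24809. The part of these markers' source in the Anln levels was not tested.

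The kinases and cyclins that start mitosis fell in both hosts. Cdk1 (chr10:69335146-69352938, minus strand) was at 6150.4, 6108 and 6199.9 in culture, 3916, 3935 and 4039 in WT GFP+ cells and 3025, 2981 and 3101 in Pfp/Rag2-/- GFP+ cells. The groups did not overlap, and the 3 libraries of each were close together. Its log2 difference from culture was -0.63 in WT (SE 0.04, adjusted p = 3.45e-06) and -1.02 in Pfp/Rag2-/- (SE 0.03, adjusted p = 2.7e-08). The B-type cyclin Ccnb2 was at 2388, 2743 and 2730.3 in culture, 1429.8, 1395 and 1636 in WT and 1404, 1568 and 1638 in Pfp/Rag2-/- GFP+ cells, so both hosts lay below culture and overlapped each other. Aurka, the kinase that matures the spindle poles, was at 3032, 3027 and 2914 in culture, 1673, 1833 and 1808 in WT and 1290.3, 1347 and 1423 in Pfp/Rag2-/- GFP+ cells, again 3 separate groups. It fell by 1.14 in Pfp/Rag2-/- (SE 0.05, adjusted p = 7.79e-08). The kinase Plk1 and the cyclins Ccna2 and Ccnb1 fell by 0.76, 0.68 and 0.58 in WT and by 1.08, 0.83 and 0.72 in Pfp/Rag2-/-. Cdc25c, the phosphatase, fell by 0.40 and 0.88.

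Genes of the spindle midzone and its motors fell too. Kif20a, the kinesin that carries regulators to the midzone, was at 3328, 3421 and 3264 in culture, 1893, 1795 and 2037 in WT and 1386, 1544 and 1625 in Pfp/Rag2-/- GFP+ cells (log2 difference -0.81 and -1.14, SE 0.06 and 0.06). Prc1, which bundles midzone microtubules (chr7:80294450-80316259, plus strand), was at 5042, 5126 and 5143, at 3582, 3863 and 3615 and at 2169, 2106 and 2401 in the same groups. Culture was highest and Pfp/Rag2-/- lowest for both genes, with no overlap. Prc1 fell by 0.47 in WT (SE 0.05, adjusted p = 3.99e-05) and 1.20 in Pfp/Rag2-/- (SE 0.05, adjusted p = 1.09e-07). Exons of 11 members overlap those of another gene, 10 of them on the opposite strand. Prc1 and Kif20a share 911 and 1271 bases with the opposite-strand genes Rccd1 and Cdc23, and Ccna2 and Cdc20 share 510 and 53 with Exosc9 and Elovl1. The strand setting of the authors' counting is not given in the sources used here, so reads of such pairs could be mixed. Rccd1 was at 183 in culture and 202 in WT GFP+ cells, and Cdc23 at 2680 and 1529.

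**Figure D2:**
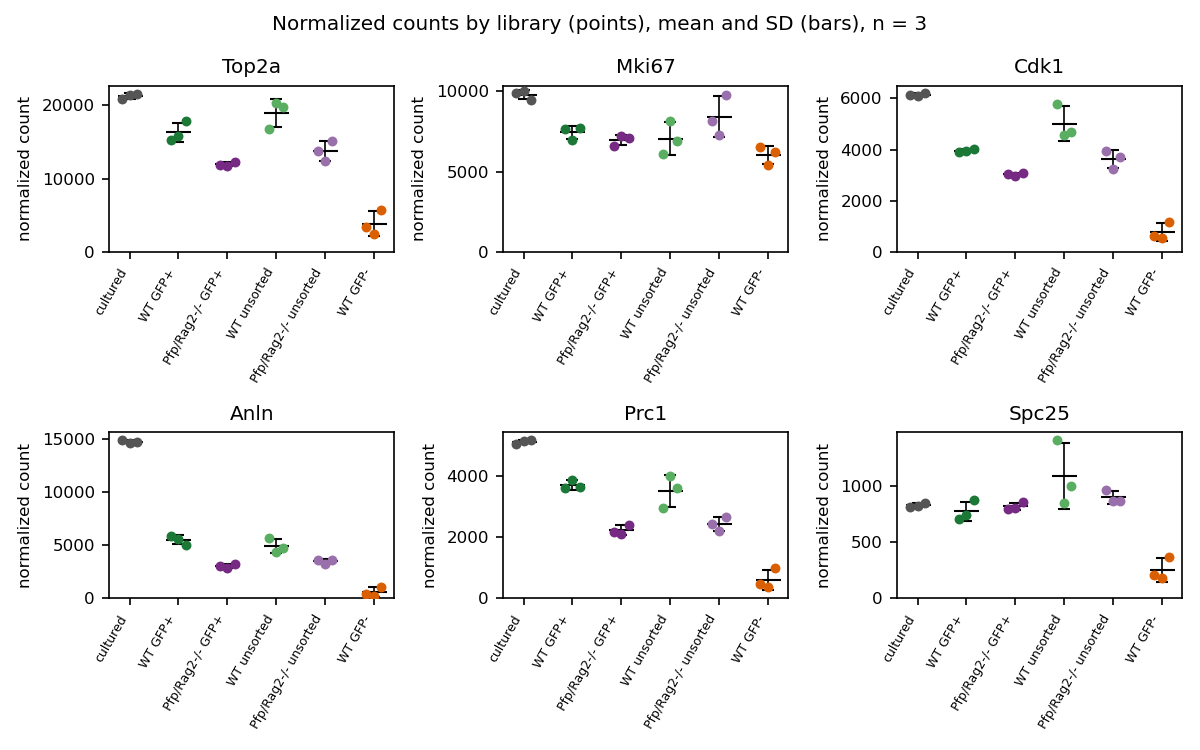
Normalized counts (vertical axis, from 0) of 6 mitosis genes in each library (points), with the mean and SD of the 3 libraries of each group (bars). Top2a, Cdk1, Anln and Prc1 step down from culture to WT GFP+ to Pfp/Rag2-/- GFP+ cells, Spc25 overlaps between these 3 groups, and Mki67 is the only 1 of the 6 whose GFP- points come near the GFP+ points.

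The differences from culture were smallest for a few checkpoint, kinetochore and spindle genes. Mad2l1, which encodes the checkpoint protein that holds Cdc20, was at 2371, 2207 and 2283 in culture, 1863, 1927 and 2112 in WT and 1929, 1925 and 2015 in Pfp/Rag2-/- GFP+ cells. The 2 hosts overlapped and both lay below culture, by 0.22 (adjusted p = 0.0114) and 0.22 (adjusted p = 0.00131). Ckap2, a microtubule-stabilizing protein, was at 1665, 1666 and 1783, at 1521, 1429.9 and 1534 and at 1359.8, 1452 and 1477 in the same order, below culture in all 6 libraries. Securin, encoded by Pttg1, was at 1786, 1941 and 2007 in culture, 1634, 1612 and 1757 in WT and 1401, 1437 and 1503 in Pfp/Rag2-/- GFP+ cells, where the WT libraries came just under the lowest cultured one. Ndc80, which grips microtubules at the kinetochore, was at 876, 899 and 873 in culture, overlapped in WT at 871, 855 and 958 and lay lower in Pfp/Rag2-/- at 736, 704 and 769 (log2 difference -0.26, adjusted p = 0.00162). Its partner Spc25 (chr2:69193895-69206194, minus strand) was at 816, 820.1 and 848, at 709.7, 741 and 874 and at 798, 807 and 856, all overlapping (log2 difference -0.10, SE 0.08, in WT and -0.01, SE 0.05, in Pfp/Rag2-/-). Spc25 was called lower in WT without WT GFP+ library 3 (adjusted p = 0.0175). With libraries scaled to their totals it was called higher in Pfp/Rag2-/- (adjusted p = 0.0201), and 36 members were called lower, where 6595 genes were called higher and 3968 lower against 5089 and 5377.

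Top2a and Mki67, the usual markers of dividing cells, fell in the GFP+ cells of both hosts. Top2a, the topoisomerase that untangles sister chromatids (chr11:98992943-99024189, minus strand), was at 20809.8, 21349 and 21612 in culture, 15298, 15869.7 and 17807 in WT and 11899.9, 11661 and 12209 in Pfp/Rag2-/- GFP+ cells. Mki67, which encodes the Ki-67 protein that coats mitotic chromosomes (chr7:135689784-135716361, minus strand), was at 9888, 10054 and 9466, at 7677, 6999 and 7722 and at 6586, 7218 and 7115 in the same groups. The hosts were separate for Top2a and overlapped for Mki67. Top2a fell by 0.38 and 0.83, and Mki67 by 0.39 and 0.49 (SE 0.06, 0.04, 0.05 and 0.05). When all 18 libraries shared 1 estimate of the spread, 20 members were called lower in WT GFP+ cells, where 27.4% of all genes were, and Top2a was not among them (adjusted p = 0.124).

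DNA replication, the step before mitosis, depends on another set of genes, listed here beside the mitosis genes. Of 40 replication genes, 11 were higher and 9 lower in WT GFP+ cells than in culture, and 5 were higher and 25 lower in Pfp/Rag2-/- GFP+ cells. Of all genes, 30.3% were called higher and 35.3% lower in WT, so both WT counts lie below the share of all genes, and 35.1% higher and 37.1% lower in Pfp/Rag2-/-. By library, the median mitosis gene was at 69.3% to 73.6% of culture in WT GFP+ cells where the median replication gene was at 97.0% to 103%. In Pfp/Rag2-/- GFP+ cells these were 55.4% to 59.9% and 84.0% to 86.0%. Every library taken from a tumour had a lower median for mitosis than for replication genes. The difference between the lists was not tested. Among those called with the largest differences, Rfc3 of the clamp loader and the licensing factor Cdt1 were higher in WT GFP+ cells than in culture (log2 difference 0.55 and 0.51), and the polymerase subunit Pola1 and the ribonucleotide reductase subunit Rrm1 were lower (-0.56 and -0.48).

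**Figure D3:**
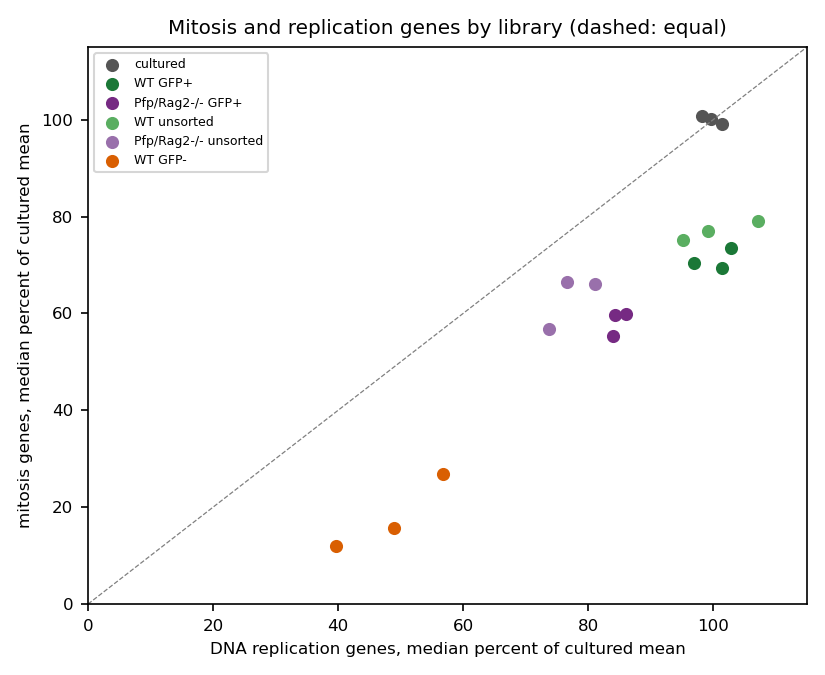
Each point is 1 library: the median of 40 DNA replication genes (horizontal axis) and of the 40 mitosis genes (vertical axis), each gene as percent of its cultured mean. The 15 tumour libraries lie below the dashed line of equal medians, with WT GFP+ cells at 97.0% to 103% for replication and 69.3% to 73.6% for mitosis genes, and GFP- cells lowest on both.

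In sorted tumour cells the mitosis genes were higher in WT than in Pfp/Rag2-/- hosts. Of the 40, 25 were called higher and 0 lower, where 15.3% of 14807 genes were called higher and 15% lower. The median log2 difference was 0.29, a ratio of 1.23, against -0.02 over all genes, and 29 members had all WT libraries above all Pfp/Rag2-/- libraries, where 23.4% of all genes did. By role, 4 of 4 chromosomal passenger genes, 2 of 2 cytokinesis genes, 5 of 6 checkpoint and anaphase-promoting complex genes, 4 of 6 spindle genes, 4 of 8 kinases, cyclins and phosphatase, 3 of 6 kinetochore genes and 2 of 6 kinesins were called higher. Spc25, Cenpa and Ccnb2 had differences below 0 (-0.09, -0.06 and -0.05), and none of the 3 was called.

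Anln, with the library values given above, was 1.80 times as high in WT at 5509.6 ± 406 (SD, n = 3) as in Pfp/Rag2-/- at 3054 ± 160.2 (log2 difference 0.85, SE 0.07, adjusted p = 0.000408). Of the 8 oligodendrocyte markers, the 4 called between these groups were lower in WT, while Ermn was at means of 14.3 in WT and 13.1 in Pfp/Rag2-/-. The part of such RNA in the Anln difference was not tested. Prc1 was at 3687 ± 154 against 2225 ± 155 (log2 difference 0.73, SE 0.06, adjusted p = 0.000514). Cdca8, which encodes borealin of the chromosomal passenger complex, was at 2292, 2325 and 2242 in WT and 1581, 1711 and 1569 in Pfp/Rag2-/- GFP+ libraries, well apart (log2 difference 0.50, SE 0.05, adjusted p = 0.00101). Incenp, the scaffold of that complex, was at 3169, 2930.2 and 2576 against 2099, 2206 and 2105 (0.43, SE 0.08). Top2a at 0.45 and Cdk1 at 0.38 came close to these. The smallest differences called were those of Pttg1 (0.20), Bub1, the checkpoint kinase that marks centromeres (0.21), and Birc5, which encodes survivin (0.24).

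Bub1 was at 1495, 1556 and 1723 in WT and 1346, 1392 and 1382 in Pfp/Rag2-/- GFP+ libraries. Birc5 was at 1622, 1665 and 1725 against 1386, 1407 and 1453. Neither gene's groups overlapped. Mki67 overlapped between the hosts and was not called (log2 difference 0.10, SE 0.06, adjusted p = 0.264), and its sign turned with quantile normalization (-0.06). With the library number as a block, Ttk was called higher too (adjusted p = 0.0416) and Bub1b was not, so the count was again 25. With all 18 libraries in 1 fit 4 members were called higher, Cdca8, Prc1, Incenp and the kinesin gene Kif23, no more than the share of all genes in that fit (10.3%), while Anln (adjusted p = 0.0753), Cdk1 (0.186) and Top2a (0.132) were not. Without the GFP+ libraries numbered 1 of both hosts, a choice made after seeing the data, 16 were called, where 8.54% of all genes were called higher. With libraries scaled to their totals, 18 members were called higher and 0 lower, while over all genes 1579 were called higher and 3082 lower, against 2269 and 2228 with the authors' scaling.

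In unsorted cells the direction was the same for most members and the spread wider. There 17 of 40 were called higher in WT and 0 lower, where 15.1% of 15448 genes were called higher and 14.8% lower, and the median log2 difference was 0.27 against -0.05 over all genes. Kinases, cyclins and phosphatase gave 6 of 8 and kinesins 0 of 6. The largest difference was that of Pttg1, at 2649, 1997 and 2163 in WT against 1669, 1363 and 1462 in Pfp/Rag2-/- libraries (log2 difference 0.59, SE 0.13, adjusted p = 0.0127). Ube2c was next, at 4594, 3811 and 4140.4 in WT against 3073, 2534 and 3057 in Pfp/Rag2-/- (0.54, SE 0.11, adjusted p = 0.0107). WT library 1 was the highest for both, and no Pfp/Rag2-/- library reached the lowest WT one. Aurka was at 2016, 2103 and 2147 in WT and 1522, 1288 and 1545 in Pfp/Rag2-/- (0.53, SE 0.09, adjusted p = 0.00541), separate and close together within WT.

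Cdk1 was at 5797, 4575 and 4691 in WT and 3933, 3234 and 3707 in Pfp/Rag2-/- unsorted cells. Top2a was at 16736, 20258 and 19814 in WT and 13763, 12339 and 15069.9 in Pfp/Rag2-/-. Neither gene overlapped between hosts, and their log2 differences were 0.47 and 0.46, near those in sorted cells. Mki67 went the other way in the means, at 6121, 8158 and 6882 against 8162, 7316 and 9801, but the groups overlapped (log2 difference -0.26, SE 0.15, adjusted p = 0.22). The kinesin Kif20b was at 1124, 1167 and 1050.1 in WT against 1277, 1232 and 1347 in Pfp/Rag2-/- libraries, all WT libraries below all others (-0.21, adjusted p = 0.0805, called lower when libraries were scaled to their totals). The smallest differences called were those of Ttk, the checkpoint kinase Mps1, at 1133, 1023 and 949 against 890.2, 758 and 842 (0.32), of Tpx2 (0.33) and of Cdc25c (0.36). Tpx2, the activator of Aurka, was at 4005, 4187 and 4190.1 in WT against 3323, 2958 and 3575. Cdc25c was at 626, 641 and 620.0 against 529, 457 and 484. WT libraries were above Pfp/Rag2-/- ones in each of the 3 genes. The macrophage and microglia sum was higher in WT unsorted cells (17 of 18 markers called), as were 14 of 15 T cell markers tested, and their part in these differences was not tested. The count of 17 became 9, 2 and 11 when Pfp/Rag2-/- unsorted library 1, 2 or 3 was left out, and 10 and 6 when WT unsorted library 2 or 3 was left out. In the same order, 10.8%, 8.4%, 10.4%, 12.5% and 9.8% of all genes were called higher. The count of 2 stands beside 8.4% of all genes called higher without that library. With all 18 libraries in 1 fit it was 3, where 13.8% of all genes were called higher, so neither count exceeds the share of all genes.

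**Figure D4:**
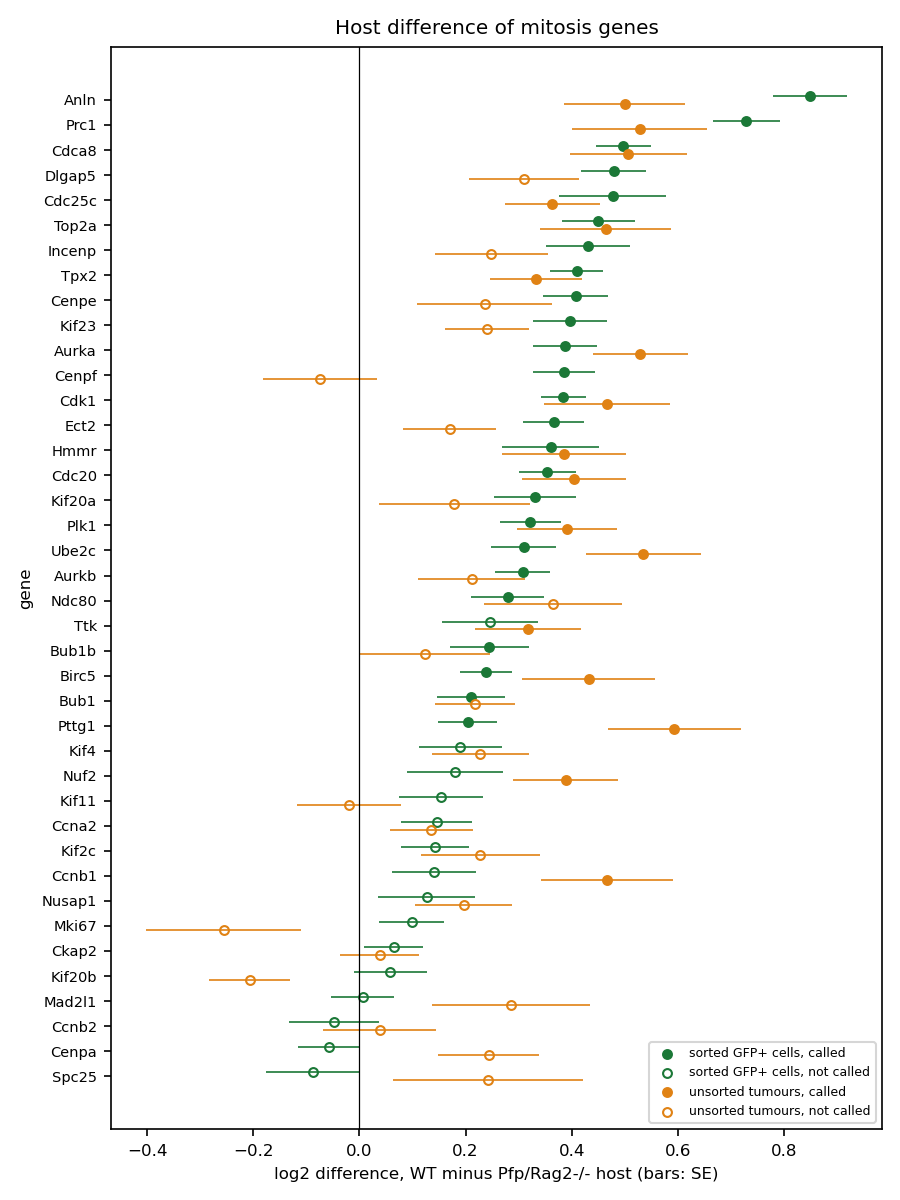
The log2 difference of WT minus Pfp/Rag2-/- host (horizontal axis) for each mitosis gene, in sorted GFP+ cells (green) and unsorted cells (orange), with the SE as bars and filled points for genes called. Most points lie right of 0, Anln at 0.85 and Prc1 at 0.73 stand out in sorted cells, and Mki67 and Kif20b lie left of 0 in unsorted cells without being called.

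No mitosis gene had a host difference that was called different between sorted and unsorted cells. The interaction was called for 0 of 40 by limma, where 0.712% of 16161 genes were called higher and 0.223% lower. The largest interaction was that of Cenpf, a kinetochore gene with a farnesylated tail, at 0.46 (SE 0.13, adjusted p = 0.0845). DESeq2 called 1 member, Cenpf, where 4.84% of all genes were called higher and 2.69% lower, so this count does not exceed the share of all genes. With edgeR the count was 0, where 0.309% were called higher and 0.124% lower. Mki67 and Anln were at 0.35 and 0.35 (adjusted p = 0.269 and 0.197), and the lowest was Pttg1 at -0.39 (SE 0.15, adjusted p = 0.172). These values do not show that the host differences were alike.

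GFP- cells of WT tumours had far less mitosis-gene RNA than the GFP+ cells. Of the 40 genes, 39 were lower and 0 higher, where 33.7% of 16083 genes were called lower and 42.7% higher, and the median log2 difference was -1.98 against 0.19 over all genes. In all 40 genes the 3 GFP- libraries lay below the 3 GFP+ libraries, where 36.4% of all genes did. Cenpa, which encodes the centromeric histone, was the only 1 not called (2800.2, 2331 and 3127 in GFP- against 3201, 3313 and 3575 in GFP+ libraries, log2 difference -0.30, SE 0.12, adjusted p = 0.0623). It was called lower in 9 of 17 alternatives, among them the library number as a block and the subtraction described below, which can only lower GFP- values. The titles number GFP- and WT GFP+ libraries alike, and the main fit did not pair them. Deviations of same-numbered libraries of these groups correlated at 0.212, 0.068 and 0.320, and those of differently numbered ones at up to 0.180.

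The largest difference was that of Anln, at 434, 260.4 and 1083 in GFP- libraries 1 to 3 (log2 difference -3.47, SE 0.48, adjusted p = 0.000714). Cdc20 was at 505, 365 and 1079 against 5798, 5749 and 5479 in GFP+ libraries (-3.28, SE 0.37, adjusted p = 0.000317). Hmmr, a spindle-pole protein, was at 278, 219 and 671 against 2645, 2599.5 and 3121 (-3.01, SE 0.40). Library 3 was more than 2 times the other GFP- libraries for each of these genes. Cdk1 was at 608, 539 and 1169 in GFP- libraries (-2.45, adjusted p = 0.000339) and Top2a at 3355, 2473 and 5746 (-2.17, adjusted p = 0.000637). Mean levels in GFP- cells were 19.5% of those in GFP+ cells for Cdk1 and 23.6% for Top2a.

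Mki67 was much nearer to its GFP+ level than these genes. It was at 6521, 5395 and 6202 in GFP- libraries and at 7677, 6999 and 7722 in WT GFP+ libraries. No GFP- library reached a GFP+ one, and library 3 did not stand out. Its mean was 80.9% of that in GFP+ cells (log2 difference -0.31, SE 0.10, adjusted p = 0.0258), and the call was lost without WT GFP+ library 1 or 3 or GFP- library 2 (adjusted p = 0.0859, 0.0817 and 0.0512). With quantile normalization the difference was -0.97. Incenp at 1767, 1513 and 2305 and Bub1b, the checkpoint kinase BubR1, at 845, 981 and 1141 against 1565, 1728 and 1819.7 were the next smallest (-0.65 and -0.79). Per kilobase of exon the order of levels in GFP- cells was Mki67 (600.3 normalized counts per kilobase), Cenpa, Pttg1, Incenp and Top2a (428), where WT GFP+ cells had Cdc20, Top2a and Ube2c first and Mki67 at rank 9.

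GFP- library 3 stood apart in genes of tumour cells as well as in mitosis genes. Of 4255 genes with at least 1000 normalized counts in each cultured and WT GFP+ group, the 100 lowest in GFP- cells had a median of 2.33%, 2.29% and 11.2% of their WT GFP+ mean in libraries 1, 2 and 3. The median mitosis gene was at 22.6%, 17.3% and 40.3% in the same libraries. With that share of the GFP+ mean subtracted from each GFP- library, an alternative chosen after seeing the data, all 40 members were called lower. The subtraction can only lower the GFP- values, and all 40 members lay below the GFP+ libraries before it, so this count adds no support. Scaling to the totals moved the median of all genes by -0.65 and quantile normalization by -0.43 on the log2 scale, the first with 4700 genes called higher and 7928 lower and the second with 5401 and 7033, against 6871 and 5412, and 40 members were called lower under each.

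**Figure D5:**
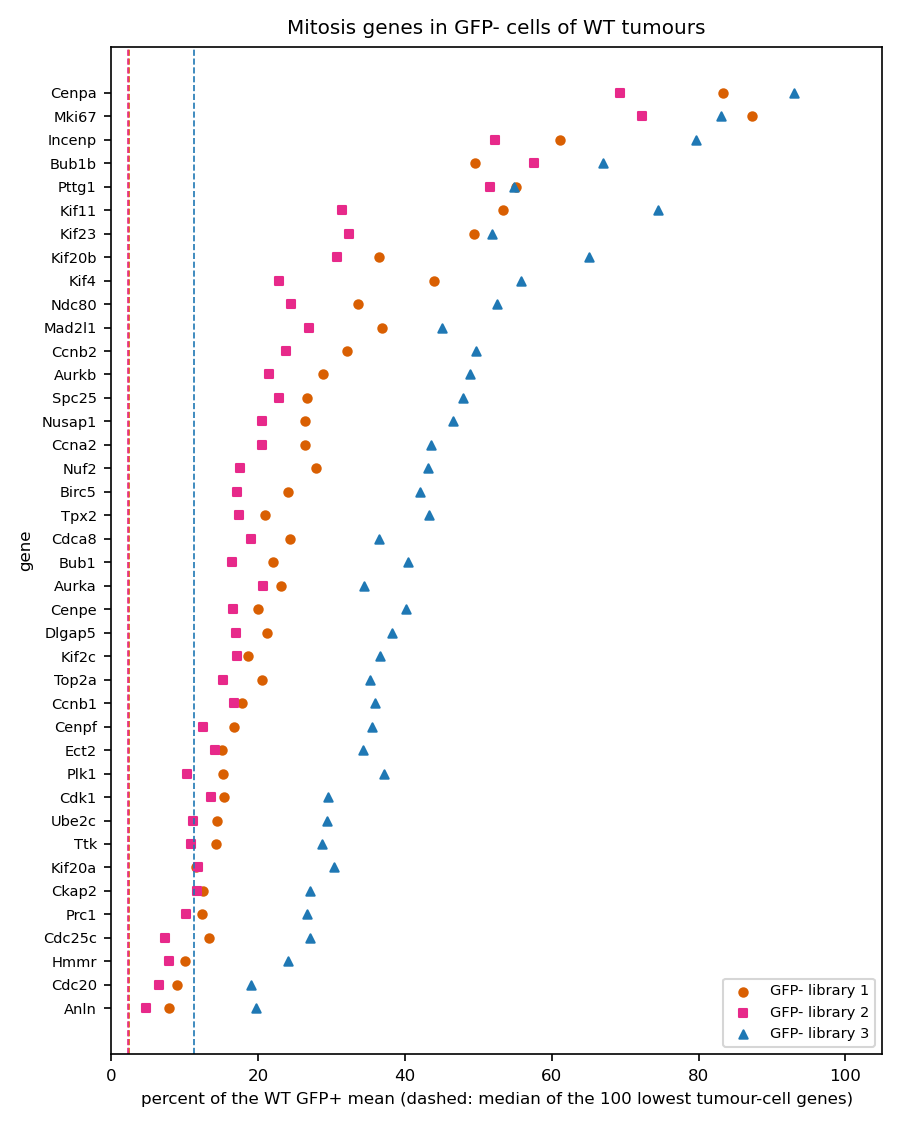
Level of each mitosis gene in GFP- libraries 1, 2 and 3 (points) as percent of the WT GFP+ mean, with dashed lines at the percent of 100 low tumour-cell genes in the same library (2.33%, 2.29% and 11.2%). Genes run from Cenpa and Mki67, at 81.9% and 80.9% on average, down to Cdc20 and Anln, and the points of library 3 lie right of the others for most genes.

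Unsorted cells hold both GFP+ and GFP- cells, and no mitosis gene was called lower in them than in sorted GFP+ cells. In WT 4 of 40 genes were higher in unsorted than in sorted cells and 0 lower, where 10.3% of 15275 genes were called higher and 6.46% lower, with a median log2 difference of 0.18 against 0.05 over all genes. A count of 4 of 40 is no more than the share of all genes called higher. The 4 were Pttg1, Ccnb1, Nusap1, which bundles spindle microtubules, and Ube2c. Ccnb1 was at 1447, 1253 and 1375 in unsorted and 962, 1005 and 1099.5 in sorted cells (0.41, adjusted p = 0.0283). Nusap1 was at 2523, 2199.7 and 2174 in unsorted and 1583, 1666 and 1974 in sorted cells (0.40, adjusted p = 0.0468). For both genes the unsorted libraries were above the sorted ones, with unsorted library 1 the highest. Of the cell type markers tested, 9 of 10 for endothelium, 6 of 6 for astrocytes, 6 of 7 for neurons and 14 of 18 for macrophages and microglia were called higher in WT unsorted cells too, and their part was not tested. Pttg1 and Ube2c, given above, differed by 0.44 and 0.39. Cdk1 (0.33), Top2a (0.21) and Mki67 (-0.09) were not called. The count changed with single libraries: 0 without WT GFP+ library 1, GFP+ library 2 or unsorted library 3, and 9 without unsorted library 1. Of all genes, 9.21%, 4.2% and 1.53% were called higher without WT GFP+ library 1, GFP+ library 2 and unsorted library 3, so calls fell over all genes too. Without unsorted library 1, 12.7% of all genes were called higher. The count was 7 with quantile normalization, where 1366 genes were called higher and 1448 lower against 1572 and 987. With scaling to the totals it was also 7, where 11.3% of all genes were called higher.

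In Pfp/Rag2-/- tumours 11 of 40 were higher in unsorted cells and 0 lower, where 19.1% of 15324 genes were called higher and 11.1% lower, with a median log2 difference of 0.16 against 0.06. Cenpf was at 3428, 3046 and 3777 in unsorted and 2141, 2207 and 2345 in sorted cells (0.61, SE 0.08, adjusted p = 0.00292). Kif20b was at 1277, 1232 and 1347 against 923, 936 and 985 (0.44, SE 0.05, adjusted p = 0.00233). Cenpe, a kinetochore kinesin, was at 2918, 2503 and 3040.3 against 2025, 2281 and 2279 (0.36). Each of these 3 genes was higher in every unsorted library than in any sorted one, and library 2 was the lowest of the unsorted ones. The unsorted libraries also had higher sums of neuron markers (1974 to 6519.9 against 358 to 450.1 in sorted cells) and pericyte markers (1513 to 2626 against 375 to 1204), and the part of such cells was not tested. The smallest called were Bub1 at 1619.5, 1479 and 1572 unsorted (0.18), Ckap2 at 1673, 1555 and 1689 (0.20) and Ndc80 at 865, 842 and 905 (0.24), all above the sorted libraries. Cdk1 was called (0.25, adjusted p = 0.039), and Top2a (0.20) and Mki67 (0.26) were not. The count was 3 to 7 without any 1 of 5 of the 6 libraries, where 12.3% to 21% of all genes were called higher. It was 18 without unsorted library 2, where 12.8% of all genes were, and 0 with all 18 libraries in 1 fit, where 10.6% were. Apart from the count of 18, these counts are near or below the share of all genes. With TMM factors 5 members were called, where 2247 genes were called higher and 2246 lower over all genes, against 2926 and 1699 with the authors' scaling. Quantile normalization gave 10 members, with 2276 and 2352 genes, edgeR 6, with 2136 and 2187, and DESeq2 7, with 2288 and 2123. The counts with TMM factors, edgeR and DESeq2 are near the shares of all genes called higher there (14.7%, 13.9% and 14.9%).

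The other genes of the pathway come from lists chosen by function. Their host differences in sorted cells are read against the 15.3% of all genes called higher in WT and the 15% called lower. Of 38 other spindle and cytokinesis genes, 37 were tested in sorted cells and 22 were higher and 1 lower in WT than in Pfp/Rag2-/- hosts, led by Wee1, the kinase that inhibits Cdk1 (log2 difference 0.69), with Cdkn3 lower (-0.31). Of 33 other kinetochore and centromere genes, 5 were higher and 0 lower, with Cenph first (0.48), a share of higher genes near that of all genes. Of 18 condensin and cohesin genes, 7 were higher and 0 lower, with Cdca5, which encodes sororin, first (0.60). Of 40 replication genes, 24 were higher and 0 lower (median log2 difference 0.24). The subunits and regulators of the anaphase-promoting complex gave 1 higher and 2 lower of 20 (Bub3 at 0.18, Anapc10 at -0.43 and Anapc5 at -0.27). Among 17 transcription regulators of G2 and mitosis 6 were higher and 0 lower, led by Mybl2, which encodes B-Myb (0.48), and Lin9 of the MuvB core (0.37).

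Against culture, Foxm1, the late cell cycle activator, fell by 0.52 in WT and 0.81 in Pfp/Rag2-/- GFP+ cells. Of the 37 other spindle and cytokinesis genes tested, 30 were lower and 4 higher in WT, where 35.3% of all genes were lower and 30.3% higher. In Pfp/Rag2-/- 32 were lower and 3 higher, where 37.1% of all genes were lower and 35.1% higher. Pkmyt1, which inhibits Cdk1, was higher in both (0.83 and 0.89), and Ckap5, a microtubule polymerase, was lower in both (-0.88 and -1.06). In GFP- cells 34 of 38 such genes were lower and 2 higher than in GFP+ cells, where 33.7% of all genes were lower and 42.7% higher. Foxm1 was at a log2 difference of -2.34 in that comparison. G1 kinases and inhibitors went in both directions there, with Cdk6 higher (2.11), Cdk4 lower (-2.09) and the Cdk inhibitor gene Cdkn1a higher (3.64). In sorted cells the host difference of Cdk6 was 1.35. Of 15 inhibitor and cell cycle exit genes, 4 were higher in WT, led by Cdkn2a (0.92) and Cdkn2b (0.80), and 3 were lower, among them Cdkn1c (-1.10) and Cdkn1a (-0.67).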

How the data were processed

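Messenger RNA of 18 libraries in 6 groups of 3 was sequenced on a NextSeq 500 after a directional library kit, per the labels' protocols. STAR 2.5.2b, DESeq2 and the GRCm38 genome are named in the submitters' processing notes. For the read counter, the annotation release and the strand setting, nothing is given in the sources used here. The authors deposited normalized counts, a signal in which the reads per gene are divided by 1 size factor per library. Every value was a whole number of reads times 1 factor per library (100% within 0.05 of a read), so reads were recovered, 19172814 to 21141662 per library. Of 48795 gene identifiers, 48435 were named through GENCODE release M21.

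Each comparison was fitted with its own groups in limma 3.58.1 (R 4.3.3) on log2(normalized count + 1), with trend, on genes with at least 10 in at least 3 libraries. Tests were two-sided, adjusted by Benjamini-Hochberg over all genes and called under 0.05. A difference on this scale understates the change of low genes. Alternatives were a pseudocount of 10, filters of 0 and 50, quantile, TMM and total scaling, all 18 libraries in 1 fit, edgeR 4.0.16 and DESeq2 1.42.0 on recovered reads, the library number as a block, and leaving out each library. The code was tested on simulated data drawn with the same spread setting for every library, so that test did not cover the unequal spread between groups seen here.

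The 40 genes and all lists were chosen with earlier results of these data known. Any of the 40 could be named. Values per library are given for the 3 largest and 3 smallest called differences of a comparison, Top2a, Mki67 and Cdk1, and a few others chosen after their values were seen (Ccnb2, Incenp, Ndc80, Spc25, Cenpa and Kif20b). Of each pathway list, up to 2 highest and 2 lowest called genes were named. Deviations of same-numbered sorted WT and Pfp/Rag2-/- libraries correlated at 0.616, 0.483 and 0.102, a pattern in the data that the labels do not explain. Differently numbered libraries of these groups correlated at up to 0.443, above number 3, so the numbers pair the libraries at most in part. In no other comparison were all 3 same-number correlations above 0.1.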

Additional observations from a re-analysis of the deposited data

How the results depend on the processing

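Of the 25 members higher in WT sorted cells, 3 were called in every alternative (Incenp, Cdca8 and Prc1). That was so for 1 of 17 in unsorted cells (Aurka), 20 of 37 and 33 of 39 lower than culture in WT and Pfp/Rag2-/-, 37 of 39 in GFP- cells, and 0 of 4 and 0 of 11 of those higher in unsorted than sorted cells of WT and Pfp/Rag2-/-. No called member changed sign in any alternative. With all 18 libraries in 1 fit, 4 members were higher in WT sorted cells and 3 in WT unsorted cells, where 10.3% and 13.8% of all genes were. In that fit 20 members were lower than culture in WT, where 27.4% of all genes were. In unsorted against sorted cells 2 were higher in WT and 0 in Pfp/Rag2-/-, where 15.3% and 10.6% of all genes were. Leaving out 1 library gave 19 to 23 members higher in WT sorted cells, where 9.32% to 18.2% of all genes were called higher. In unsorted cells it gave 2 to 23, where 8.4% to 19.7% of all genes were. Higher in unsorted than sorted cells were 0 to 9 in WT, where 1.53% to 12.7% of all genes were. In Pfp/Rag2-/- these were 3 to 18, where 12.3% to 21% of all genes were. The interaction was called for 0 to 1 (Anln without WT unsorted library 1, Cenpf without library 2). In those fits 4.24% and 2.59% of all genes were called higher, so neither count exceeds the share of all genes. Leaving out both GFP+ libraries numbered 1, chosen after seeing the data, gave 16 higher in WT sorted cells, where 8.54% of all genes were. For unsorted against sorted cells, no filter gave 2 in WT and 6 in Pfp/Rag2-/-, where 6.27% and 9.39% of all genes were called higher. With the shares of all genes in brackets, TMM gave 2 and 5 (9.43% and 14.7%), and edgeR 1 and 6 (8.62% and 13.9%). In WT alone a filter of 50 gave 2 (6.95%), and quantile and total scaling 7 each (8.94% and 11.3%). In Pfp/Rag2-/- DESeq2 gave 7 (14.9%). DESeq2 called 1 member for the interaction, where 4.84% of all genes were called higher and 2.69% lower. Total scaling called 1 member lower in WT unsorted cells (Kif20b) and 1 higher than culture in Pfp/Rag2-/- (Spc25). The cause of these changes was not tested.

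With the library number as a replicate block, 25 members were higher between hosts in sorted cells and 12 in unsorted cells, where 15.9% and 12% of all genes were. In unsorted against sorted cells 0 were higher in WT and 10 in Pfp/Rag2-/-, where 8.24% and 16.3% of all genes were. Lower than culture were 37 and 39 members in WT and Pfp/Rag2-/-, where 34.4% and 37% of all genes were. In GFP- cells 40 were lower, where 33.3% of all genes were. The interaction was called for 0, where 0.681% of all genes were called higher and 0.142% lower. Only between hosts in sorted cells were all same-number correlations above 0.1, and there the block changed the calls of Ttk and Bub1b alone among the members. With 3 libraries a group, differences within the spread of the unsorted libraries were not detectable.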

Other observations

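Shcbp1, a midbody gene from the list of other spindle and cytokinesis genes, went against nearly all of that list. It was at 0, 1.89 and 0.954 in cultured libraries, at 6.70, 0 and 10.1 in WT GFP+ libraries and at 212, 174 and 260.3 in GFP- libraries 1 to 3 (log2 difference of GFP- minus GFP+ 5.60, SE 0.89, adjusted p = 0.00131). Its WT unsorted libraries were at 22.1, 41.4 and 23.5 and its Pfp/Rag2-/- unsorted libraries at 19.5, 8.15 and 17.1. So the gene was near 0 in the GFP+ line and higher in the sorted fraction where 39 of the 40 mitosis genes were called lower. Its level in GFP- cells stayed far below those of Top2a and Mki67 there (means of 3858 and 6039).

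The G1 kinase gene Cdk6 was at 1719, 1615 and 1601 in culture, at 777, 808 and 550 in WT GFP+ cells, at 324, 262 and 246 in Pfp/Rag2-/- GFP+ cells and at 3172, 2664 and 3267 in GFP- cells. The 4 groups did not overlap. Cdkn2a, the gene of the p16 and p19 inhibitors, was at 5312, 5750 and 4869 in WT and 2711, 2829 and 2859 in Pfp/Rag2-/- GFP+ cells (log2 difference 0.92, adjusted p = 0.000278), higher in WT like most mitosis genes. In GFP- libraries 1 to 3 it was at 143, 148 and 538, with library 3 again the highest. Cdkn1a, the p21 inhibitor gene, was at 30524, 37300 and 19739 in GFP- cells against 2756, 2144 and 1958 in WT GFP+ cells, with library 3 the lowest (log2 difference 3.64, adjusted p = 5.84e-05).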
